A study of Mus musculus with 12 samples.

Results

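Of the 27179 mouse genes in the count table, 4 were near-silent without doxycycline and at least 16-fold higher with it, both in the absence and in the presence of the degrader dTAG-13. These were Samd5, Adgrg1, Htr4 and Etl4. Near-silent meant a mean of under 1 CPM (read counts normalised by library size) in both groups without doxycycline, and at least 30 reads had to be present with doxycycline. A full scan of the table by these limits returned the same 4 genes and no other. The genes were thus chosen by their measured counts in the 4 groups, and their doxycycline contrasts are given as a description, with no test.

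The cells were MC38-idAdpgkG, a stably transfected derivative of MC38, a C57BL/6 mouse colon carcinoma line. They carry a doxycycline-inducible mutated Adpgk (ADP-dependent glucokinase) fused to turboGFP, and the fusion protein is degraded when dTAG-13 is added. All 4 groups received mouse interferon-gamma at 20 ng/mL, so no group shows the genes without this cytokine. Control cells were kept for 51 h in the cytokine with nothing added. Doxycycline cells had 1 µg/mL doxycycline beside it over the same 51 h. The dTAG-13 cells had interferon-gamma for 48 h and then 1 µM dTAG-13 for 3 h. The doxycycline plus dTAG-13 cells had interferon-gamma and doxycycline for 48 h and then the same dTAG-13 step. Per the labels, the 3 libraries of each group are technical repeats from 1 biological sample. SDs, intervals and p-values therefore measure the spread between libraries of 1 culture per treatment.

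The 4 genes encode proteins of different kinds, although Adgrg1 and Htr4 both encode receptors that act through G proteins. Adgrg1 (also called GPR56) is an adhesion G protein-coupled receptor, a class with a long extracellular part that is cut from the membrane-spanning part during maturation. It binds collagen III in the developing brain and signals through G12 and G13 proteins to the GTPase RhoA. Htr4 is a serotonin receptor that couples to the stimulatory G protein Gs, raises cyclic AMP and is known in the gut for its part in motility. Samd5 encodes a protein with a sterile alpha motif (SAM), a domain through which proteins bind each other. Etl4, also named sickle tail, is known from mice with malformed intervertebral discs and tail vertebrae. In inducible systems of this kind doxycycline, a tetracycline antibiotic, acts through an engineered transcription factor at the transgene's promoter.

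The 4 genes lie on 4 different chromosomes. Spans are from the RefSeq annotation of GRCm38.p6, the mm10 build. Samd5 (Entrez 320825) covers chr10:9262461-9675926 on the minus strand. Adgrg1 (Entrez 14766) covers chr8:94974756-95014208 on the plus strand and is the shortest of the 4, at 39.5 kb. Etl4 (Entrez 208618) covers chr2:19910207-20810535 on the plus strand and is the longest, at 900.3 kb. All 4 overlap non-coding genes or pseudogenes in this annotation. Of those, only Gm13363, a transcribed pseudogene inside Etl4, has a row in the count table, with 4805 reads over the 12 libraries. The strand setting of the counting is not given in the sources used here, so reads of overlapping genes may not be fully separated.

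Promoter windows are shown so that the letters upstream of listed transcript starts of these genes can be compared. RefSeq (GRCm38.p6) gave 1 window for Samd5, 2 for Adgrg1 and 3 for Etl4, and the 250 bases before each listed start were read. All of these windows lie inside the gene spans given above, so the bases before the outermost start of each gene were not read. Printed are the window of Samd5, both of Adgrg1 and, of Etl4, the one richest in G and C, each 5′ to 3′ on the gene's strand. Capitals mark matches, on either strand, to 5 short motifs. These are the TATA box, with the letters TATAAA, and the promoter element known by its letters CCAAT. The GC box, searched as GGGCGG, and the AP-1 element, searched as TGANTCA, were added. The last was TGACG, the first part of a cyclic AMP response element.
Samd5, chr10:9675209-9675458, minus strand: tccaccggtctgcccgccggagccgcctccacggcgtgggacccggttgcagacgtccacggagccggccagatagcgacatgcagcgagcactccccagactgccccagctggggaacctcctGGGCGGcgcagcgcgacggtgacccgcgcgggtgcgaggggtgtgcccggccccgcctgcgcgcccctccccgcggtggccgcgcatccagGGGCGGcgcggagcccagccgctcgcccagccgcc
Adgrg1 first window, chr8:94976859-94977108, plus strand: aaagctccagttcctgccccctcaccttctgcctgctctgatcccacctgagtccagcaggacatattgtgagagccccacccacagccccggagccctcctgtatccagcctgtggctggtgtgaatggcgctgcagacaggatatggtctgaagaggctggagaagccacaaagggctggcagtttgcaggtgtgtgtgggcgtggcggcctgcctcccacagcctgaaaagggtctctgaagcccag
Adgrg1 second window, chr8:94984149-94984398, plus strand: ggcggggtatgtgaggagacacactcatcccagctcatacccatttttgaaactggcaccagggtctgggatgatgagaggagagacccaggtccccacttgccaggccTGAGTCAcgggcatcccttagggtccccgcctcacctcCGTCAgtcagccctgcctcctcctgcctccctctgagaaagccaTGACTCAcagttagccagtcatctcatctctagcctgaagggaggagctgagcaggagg
Etl4 second window, chr2:20509797-20510046, plus strand: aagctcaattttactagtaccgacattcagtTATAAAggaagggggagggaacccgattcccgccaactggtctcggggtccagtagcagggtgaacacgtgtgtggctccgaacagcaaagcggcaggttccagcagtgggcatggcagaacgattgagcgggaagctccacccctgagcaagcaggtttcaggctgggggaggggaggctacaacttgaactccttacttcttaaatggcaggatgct

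No motif of this set was found in the windows of all 3 genes. The Samd5 window held 78.4% G and C and 35 CpG dinucleotides, against medians of 52.4% and 6 over all 32851 windows of this length. It held GGGCGG 2 times, a motif present in 32.7% of all windows. The Adgrg1 windows had 60.8% and 59.2% G and C and 4 CpG each. The first held none of the motifs. The second held TGANTCA 2 times, which 6.75% of all windows contain, and TGACG 1 time, in its reverse complement CGTCA, which 17.8% contain. The printed Etl4 window had 54.8% G and C, 9 CpG and 1 TATAAA, a motif found in 12.4% of all windows. The third Etl4 window held 1 CCAAT (33.8% of all windows), and the first held none of the motifs. The Samd5 window thus differed in base composition from those of Adgrg1 and Etl4. These are matches of letters, not sites shown to be bound.

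The libraries held 22165538 to 32809573 counted reads each. No 2 libraries of a group agreed within sampling noise: the chi-square per degree of freedom between them was 2.43 to 8.80. Markers of colon epithelium, the labelled origin of the line, were near 0: all 11 were below 1 RPM (reads scaled by the library's total count) in every library, and Epcam, Cdx2 and Muc2 had 0 reads throughout. The 5 mesenchymal markers summed to 1424 to 2224 RPM, mostly from Vim and Fn1. Of these 5, Col1a1 and Col1a2 were below 1 RPM in every library, at most 0.200 and 0.352. The 5 leukocyte markers summed to at most 0.0999, the 3 natural killer or cytotoxic T cell markers to at most 0.103 and the 2 enterochromaffin markers to at most 0.244 RPM. The 4 neuronal markers summed to 35.6 to 47.7 and the 3 endothelial markers to 1.94 to 4.29 RPM, mainly from Tubb3 and Pecam1.

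Adgrg1 carried most of the reads of the set. The control libraries had 29, 13 and 31 reads of it and the dTAG-13 libraries 11, 19 and 10. With doxycycline alone the counts were 2136, 2180 and 1919, and with doxycycline plus dTAG-13 they were 1081, 1295 and 1520. Every library with doxycycline lay far above every library without it. Scaled by total reads, the summed reads were 88.8-fold higher with doxycycline than in controls (95% counting interval 70.5 to 113) and 109-fold higher in the presence of dTAG-13 (80.2 to 153). These intervals, like those below, cover counting error only. Adgrg1 supplied 89.5% of the reads of the 4 genes with doxycycline and 87.7% with both agents.

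Samd5 started from almost no reads. Controls had 0, 0 and 2 reads and dTAG-13 libraries 2, 1 and 0, against 179, 185 and 211 with doxycycline and 120, 151 and 155 with both agents. No library without doxycycline had more than 2 reads, and no library with it had fewer than 120. The ratio to controls was 299 (82.4 to 2474), and 160 (54.2 to 777) in the presence of dTAG-13. The size of both ratios rests on the 2 or 3 reads in the groups without doxycycline. Without the third control library, which held both control reads, it was at least 137, taking 3 reads over the group as the floor, and without the first or second it was 195 or 197. Without the first dTAG-13 library the second ratio was 315.

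Htr4 (Entrez 15562, chr18:62323546-62503027, plus strand) was detected at a low level. A single read was counted over the 6 libraries without doxycycline, in the third control. The doxycycline libraries had 22, 15 and 18 reads and those with both agents 17, 18 and 25. Each library with doxycycline thus held at least 15 reads of this serotonin receptor. The ratio was 57.2 (9.84 to 2299) against controls. In the presence of dTAG-13 the level was at least 22.5-fold higher, computed against the 3-read floor of 0.0339 RPM. Without the third control library the first ratio was at least 13.1, and it was 37.2 or 37.7 without the first or second. Without the first or second dTAG-13 library the second bound was 14.8.

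Etl4 was similarly sparse. Controls had 1, 0 and 2 reads and dTAG-13 libraries 1, 0 and 0. With doxycycline there were 28, 42 and 29 reads, and with both agents 10, 29 and 23. The groups with and without doxycycline did not overlap, which again largely follows from the choice. The 3 libraries with both agents differed among themselves more than for the other 3 genes. The ratio was 34.3 (11.4 to 169) against controls and 69.7 (12.1 to 2796) in the presence of dTAG-13. It was 70.9 without the third control library and 22.6 without the second. The other ratio was at least 15.3 without the first dTAG-13 library and 46.0 without the second.

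For comparison, Adpgk, the gene of the transgene, had 4565 to 5159 reads in controls and 39246 to 41484 with doxycycline, an 8.55-fold rise from a high starting level (7.37-fold in the presence of dTAG-13). Gene counts cannot separate reads of the cells' own Adpgk from those of the transgene, so the induction of the transgene alone is not known. In bulk RNA a higher level in all cells and expression in a subset of cells cannot be told apart.

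**Figure D1:**
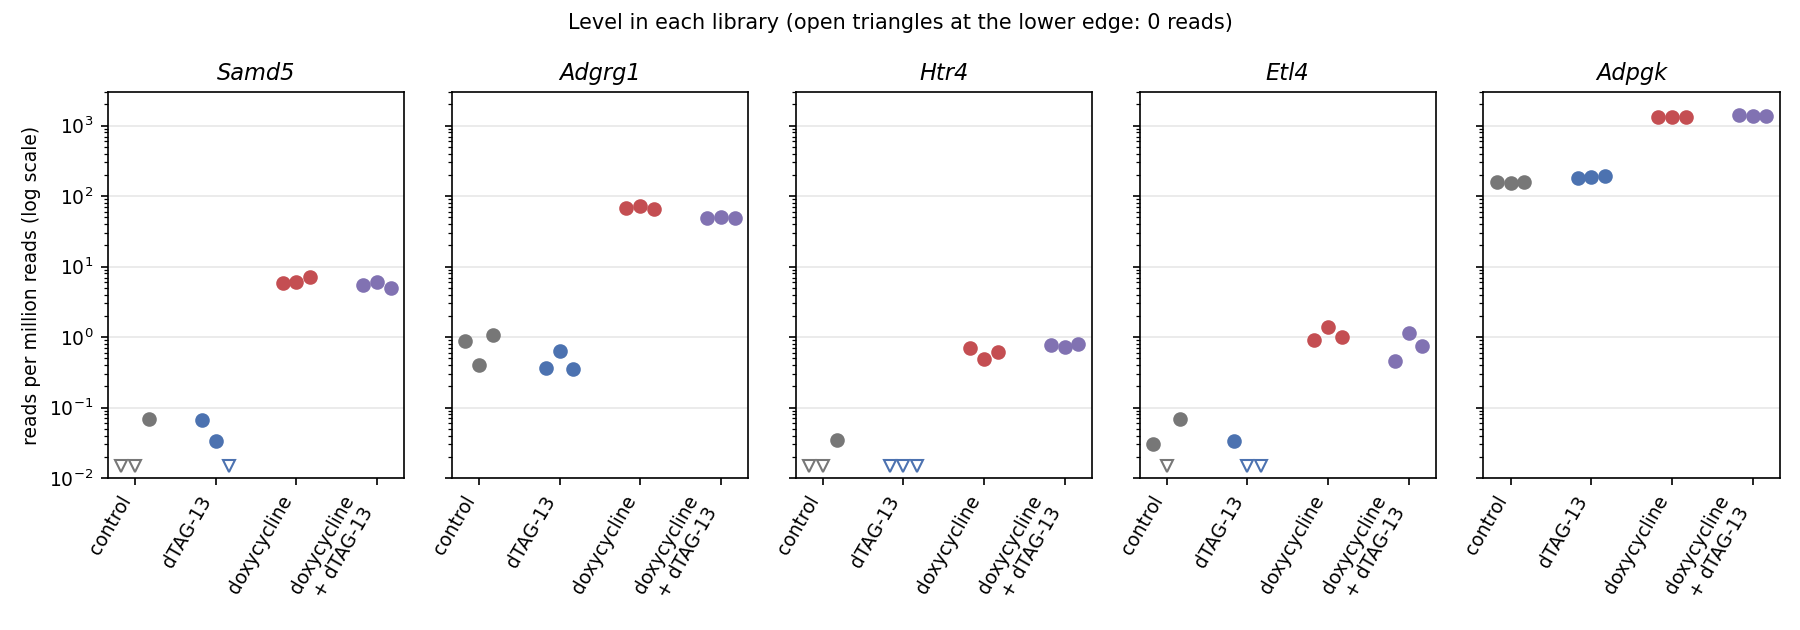
RPM, reads scaled by the library's total count (log scale), of Samd5, Adgrg1, Htr4, Etl4 and Adpgk in each of the 12 libraries, 3 points per group, with open triangles at the lower edge for libraries with 0 reads. In all 4 genes each library with doxycycline lies above each library without it, which largely follows from how the genes were chosen. Adgrg1 without doxycycline stays at or below 1.06 RPM.

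The limit of 16-fold fell in a wide gap. Ordered by the smaller of the 2 doxycycline ratios, with 3 reads as the least denominator, Htr4 lay just inside at 19.1 and Etl4 at 23.2, followed by Adgrg1 at 88.8 and Samd5 at 160. The nearest genes outside that were also near-silent and had at least 30 reads with doxycycline were Serpinb9g at 5.54, Col12a1 at 4.44, Inmt at 3.37, Duoxa1 at 3.27, Olfr288 at 3.1 and Cdo1 at 2.89. Serpinb9g, a member of a granzyme-inhibiting serpin family, had 2 reads in controls, 16 with doxycycline, 25 with both agents and 1 with dTAG-13. Col12a1, a fibril-associated collagen, had 59, 316, 154 and 39. Krt15 (4.16), Rnf207 (3.37) and Slc6a2 (3.12) were near-silent too but had fewer than 30 reads with doxycycline. Between these genes and Htr4 lay Adpgk at 7.37, which was not near-silent. At the same limit no gene was 16-fold lower with doxycycline in both backgrounds, and at 2-fold 74 genes were higher and 24 lower.

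**Figure D2:**
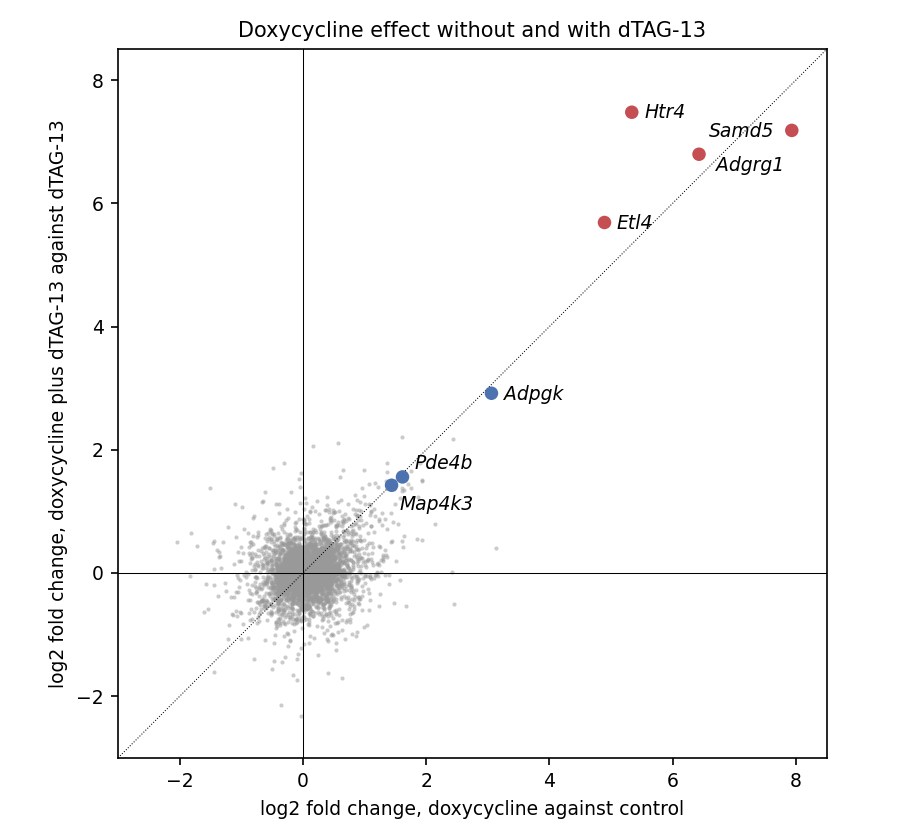
Fitted log2 fold change with doxycycline in the absence (x) and presence (y) of dTAG-13 for the 12910 tested genes, with the 4 genes in red, Adpgk, Pde4b and Map4k3 in blue and equal values on the dotted line. The 4 genes lie beyond Adpgk at the upper right; their fitted values rest on 0 to 73 reads in the groups without doxycycline, so that of Htr4 on the y axis, set against 0 reads, is no bound.

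Per kilobase of annotated exon the order of levels was the same in both groups with doxycycline. With doxycycline Adgrg1 stood at 12.8 ± 0.595 CPM per kb (SD, n = 3), Samd5 at 0.927 CPM per kb, Htr4 at 0.125 and Etl4 at 0.0686. With both agents the levels were 9.07 ± 0.272, 0.782, 0.154 and 0.0481 CPM per kb. No neighbours in this order overlapped between libraries. The closest pair was Htr4 and Etl4, whose means differed 1.81-fold with doxycycline and 3.19-fold with both agents. These lengths are the union of annotated exons, and which transcripts of each gene were made is not known from gene counts.

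The dTAG-13 contrast among cells with doxycycline was not used to choose the genes. Adgrg1 fell, from 69.4 ± 3.23 CPM with doxycycline to 49.2 ± 1.47 CPM with both agents (SD, n = 3). The groups did not overlap, and the log2 fold change was -0.50 (SE 0.0543, 95% interval -0.61 to -0.39, edgeR adjusted p = 7.08e-10). Samd5 went from 6.42 ± 0.775 to 5.41 ± 0.496 CPM, a log2 difference of -0.25 (-0.53 to 0.03, adjusted p = 0.115). Htr4 went from 0.611 ± 0.106 to 0.754 ± 0.0454 CPM, a log2 difference of 0.30 (-0.38 to 0.99, adjusted p = 0.445). Etl4 went from 1.1 ± 0.262 to 0.773 ± 0.349 CPM, a log2 difference of -0.49 (-1.14 to 0.15, adjusted p = 0.174). Neither a change nor the lack of one is shown for these 3 genes, since their intervals hold both 0 and sizable changes.

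Thus 1 of the 4 genes was called in this contrast, in which 64.1% of all tested genes were called and 33.4% were called lower. A fall of Adgrg1 is common behaviour against that background, and whether the 4 genes differ from each other in it was not tested. Without the second library with both agents Etl4 was called as well, at -0.85 (adjusted p = 0.0459), whereas without the first the value was -0.26. Without the second doxycycline library it was -0.30. The summed mesenchymal markers, mostly Vim and Fn1, moved the same way as Adgrg1, from 1996 to 2018 RPM with doxycycline to 1424 to 1456 with both agents. They were also lower with dTAG-13 in the absence of doxycycline, at 1672 to 1695 RPM against 2181 to 2224 in controls. The summed neuronal markers stood at 35.7 to 38.9 RPM with doxycycline and 35.6 to 38.4 with both agents. The part of any marker set in the result was not tested. Adpgk RNA, by contrast, gave a log2 difference of 0.03 (-0.01 to 0.07, adjusted p = 0.14).

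**Figure D3:**
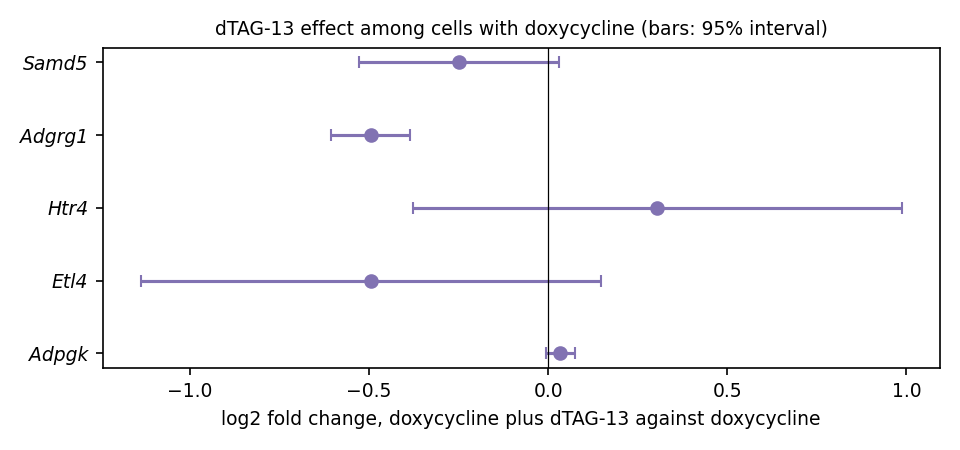
Log2 fold change with its 95% interval for doxycycline plus dTAG-13 against doxycycline in the 4 genes and Adpgk, from 3 libraries per group. The interval of Adgrg1 lies wholly below 0 and those of Samd5, Htr4, Etl4 and Adpgk span 0.

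Without doxycycline the 4 genes gave little to compare. Adgrg1 had 0.810 ± 0.352 CPM in controls and 0.436 ± 0.152 CPM with dTAG-13 (SD, n = 3), and the libraries of these groups overlapped. The difference, -0.86 on the log2 scale with an SE of 0.300, was called (edgeR adjusted p = 0.0127) in a contrast in which 62.1% of all genes were. The call was lost without the first control (-0.76, adjusted p = 0.0590), the third control (-0.61, 0.108), the first dTAG-13 library (-0.73, 0.0644) or the third (-0.73, 0.0615). Samd5, Htr4 and Etl4 had 0 to 3 reads per group here and were not called, but these reads are too few to decide whether they changed. The limit of 1 CPM in both groups without doxycycline was part of how the genes were chosen. The p-values of Adgrg1 in this contrast thus rest on values that the choice had already limited. They are given as a description, and no effect of dTAG-13 on the 4 genes without doxycycline is concluded from them.

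Genes next to the 4 did not share the size of their rise. The 3 nearest tested genes on each side of each gene, 24 in all, had log2 fold changes with doxycycline from -0.77 to 0.64, and from -0.47 to 0.41 in the presence of dTAG-13. In the first contrast 11 of the 24 were called, 6 higher and 5 lower, where 33.5% of all tested genes were called, 14.8% higher and 18.7% lower. In the second 4 were called, 2 higher and 2 lower, where 20.4% of all genes were, 10.7% higher and 9.64% lower. The median absolute log2 change of the 24 was 0.14 and 0.09, against 0.11 and 0.09 over all genes. Around Samd5 5 of the 6 neighbours were called in the first contrast and 3 in the second, with median absolute changes of 0.26 and 0.19. These 6 lie far apart, up to 1887 kb from Samd5 when distance is taken between the lower coordinates of the genes. Samd5 is on the minus strand, so its lower coordinate is its 3′ end and these distances are not between transcription starts. By this measure only Stxbp5 lies within 500 kb. It covers chr10:9755547-9901287 and so lies nearer to the upper, 5′ end of Samd5 at 9675926. Stxbp5 was called in the first contrast but not in the second. Without the second doxycycline library 7 of the 24 were called in the first contrast.

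Around Samd5, Sash1, a scaffold protein of Toll-like receptor signalling, rose by 0.64 (SE 0.118, edgeR adjusted p = 2.93e-05). In the presence of dTAG-13 it rose by 0.41 (adjusted p = 0.0168), a call lost without the second dTAG-13 library (0.37) or the third with both agents (0.29). Rab32, a GTPase of organelle transport, rose by 0.31 and 0.27, and Ust, a sulfotransferase, fell by 0.23 and 0.47 on the log2 scale. The call of Ust in the first contrast was lost without the third control (-0.18) or the first (-0.21) or second (-0.19) doxycycline library. These 3 were the only ones of the 24 called in the same direction in both contrasts. Stxbp5 rose by 0.29 and Tab2 by 0.13 without dTAG-13, with values of -0.09 and 0.00 in its presence.

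Around Adgrg1, Polr2c, Dok4, Ccdc102a, Kifc3 and Zfp319 stayed between -0.15 and 0.13 in both contrasts. Polr2c (-0.13) was called lower in the first and Kifc3 (-0.15) in the second, both with small changes. Polr2c lost its call without the first or the third control, the first or second dTAG-13 library or the second or the third doxycycline library, where it reached -0.10. It also lost the call in 5 of 8 other alternatives, DESeq2 among them (adjusted p up to 0.157, when scaled by library size alone). Kifc3 lost it without the second library with both agents (-0.13) and with the length and GC correction (-0.11). Its close relatives Adgrg3 and Adgrg5, which neighbour it in the genome, had 0 reads in all 12 libraries. Beside Htr4, the 1500015A07Rik transcript fell by 0.77 on the log2 scale (adjusted p = 6.92e-05) without dTAG-13 and had a value of -0.24 in its presence. Sh3tc2 rose by 0.22 and Fbxo38 by 0.10 without dTAG-13. Fbxo38 lost its call in DESeq2 (0.09) and without the third control (0.07) or the first (0.10) or second (0.09) doxycycline library. Near Etl4 edgeR called only the overlapping pseudogene Gm13363, at -0.21 without dTAG-13, and DESeq2 called 0 of the 6. The call was lost in 4 of 7 other alternatives (adjusted p up to 0.0802, when scaled by library size alone), and without the second control (-0.14) or the first (-0.18) or second (-0.19) doxycycline library. For Htr4 and Etl4 no neighbour was called in the presence of dTAG-13 by edgeR or by DESeq2, and 0 had an unadjusted p under 0.05.

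**Figure D4:**
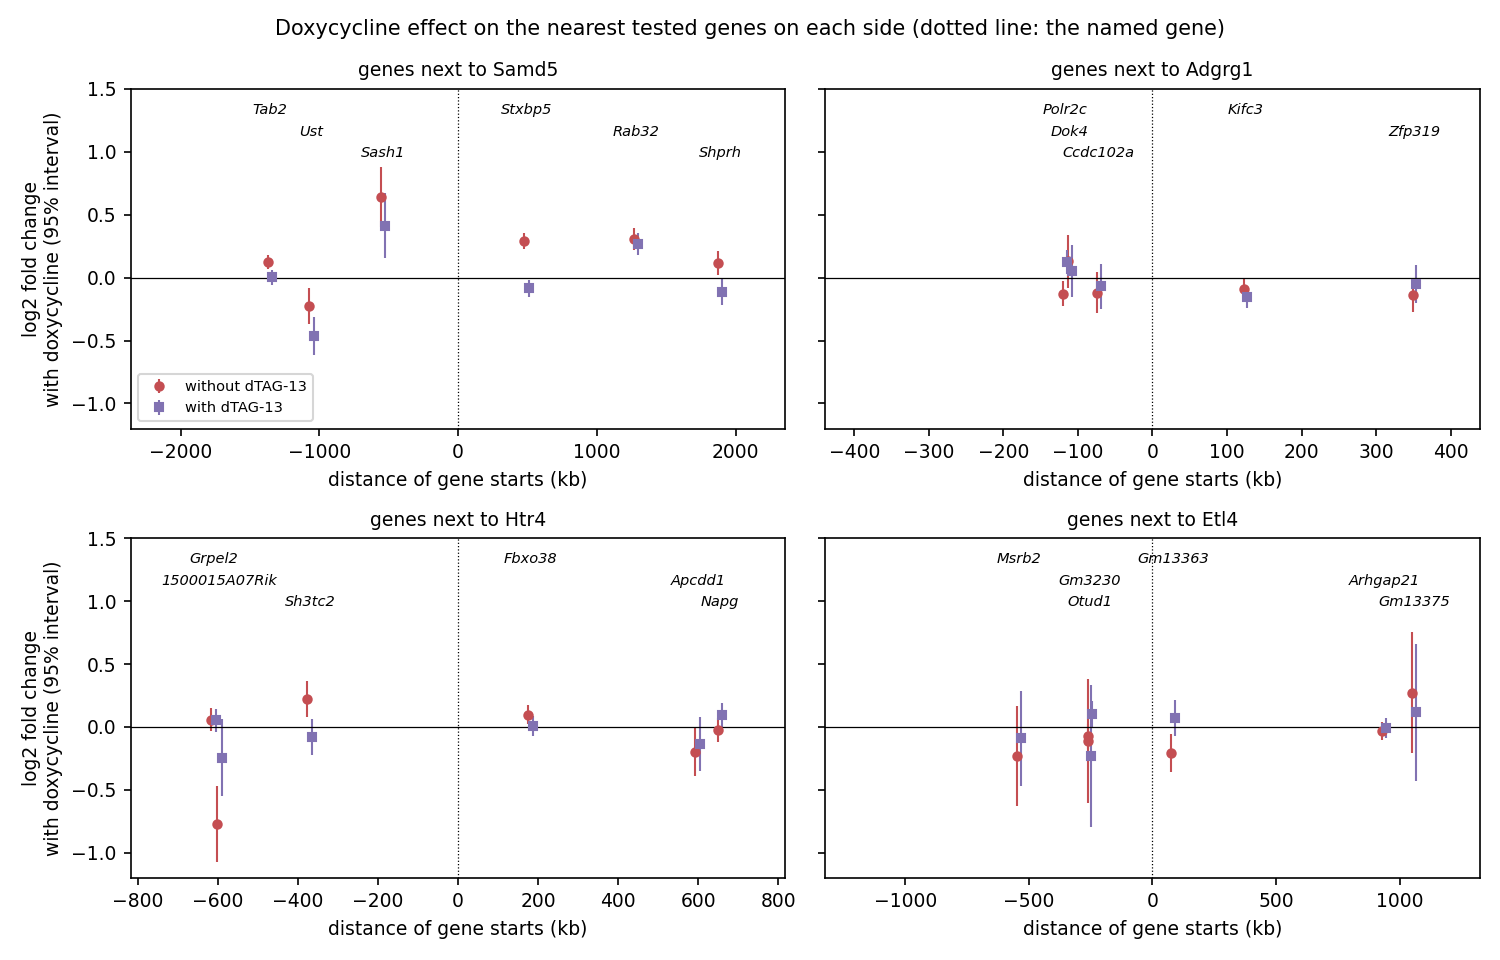
Log2 fold change with doxycycline, with 95% intervals, of the nearest tested genes on each side of Samd5, Adgrg1, Htr4 and Etl4 (1 of the 24 is not drawn). The x axis is the distance in kb between the lower coordinates of the genes, whatever their strand. Circles are without and squares with dTAG-13. The values lie between -0.77 and 0.64, and the 4 genes themselves would lie far above the axis range.

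Among the adhesion receptor relatives of Adgrg1, members were called in both directions. Of 29 relatives 25 had a read and 8 were tested. In the first doxycycline contrast 3 of the 8 were called, 2 higher and 1 lower (5 with the length and GC correction), where 33.5% of all genes were. They had a list median of 0.04 against -0.01 for all genes. In the presence of dTAG-13 2 were called, 1 higher and 1 lower, where 20.4% of all genes were, with a median of -0.03 against 0.00. Adgra2 was called in both, at 0.13 and 0.13. Adgrl1 rose by 0.18 without dTAG-13 (-0.02 with it), and Adgrg6 had 0.01 without and fell by 0.32 with it. Adgrl3 gave -0.53 (adjusted p = 0.0473), a call lost in DESeq2 (-0.54), with the replicate block (-0.53, adjusted p = 0.0530), when scaled by library size alone (-0.49, 0.0682) and with no filter (-0.52, 0.0696). It was also lost without any 1 control, the first or second dTAG-13 library or the second or the third doxycycline library (-0.56 to -0.47).

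Of 14 ligands, partners and signalling genes of Adgrg1, all were tested. In the first contrast 6 were called, 4 higher and 2 lower, where 33.5% of all genes were called. In the second 5 were, 3 higher and 2 lower, where 20.4% of all genes were. The list medians were 0.04 and -0.01. The 3 that rose in both were Col3a1, the collagen ligand (0.38 and 0.22), Cd9, a tetraspanin partner (0.19 and 0.17), and Gnaq, a G protein subunit (0.46 and 0.41). Over all genes 3.83% were called higher in both contrasts and 3.68% lower in both. Col3a1 stood at 850 ± 22.3 CPM in controls and 1105 ± 20.8 CPM with doxycycline (SD, n = 3). Of the classical route from Adgrg1, the G proteins Gna12 and Gna13 and the GTPase Rhoa were called in neither contrast. Other members were called lower by small amounts: Gna11, a Gq-class subunit (-0.12), and Arhgef1, an exchange factor for RhoA (-0.09, adjusted p = 0.0217), in the first contrast. In the second they were Arhgef12, another exchange factor (-0.10, adjusted p = 0.0471), and Rock2, a kinase activated by RhoA (-0.11, adjusted p = 0.00548). Arhgef1 lost its call in 4 of 8 other alternatives and without the second control or the first or second doxycycline library (-0.08 to -0.07). Arhgef12 lost it in 6 of 8 other alternatives, DESeq2 among them, and with 9 of the 12 libraries left out in turn. Rock2 lost it without the second dTAG-13 library (-0.08).

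Of 19 genes of serotonin receptors, synthesis, transport and breakdown, most could not be tested. Htr1a, Htr3a, Htr5a, Htr5b, Htr6 and Htr7 had 0 reads in all libraries. Only Htr2a, Htr2b, Maoa and Maob had enough reads to be tested. By edgeR 0 of the 4 were called in either doxycycline contrast, with 0 and 1 at an unadjusted p under 0.05, and by DESeq2 0 were called. Maoa, which breaks serotonin down, had 797 to 1179 reads per library. Tph1, the first enzyme of serotonin synthesis outside the brain, had 1 to 7 reads per library, and Ddc, the second, 2 reads in all.

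In a list of the cyclic AMP machinery through which Htr4 is known to signal, a pair of phosphodiesterases rose with doxycycline. Members of this list were called in both directions, and a link of their changes to Htr4 was not tested. Of 27 genes 20 were tested. In the first contrast 6 were called, 4 higher and 2 lower, where 33.5% of all genes were. In the second 8 were called, 3 higher and 5 lower, where 20.4% of all genes were. The list medians were 0.00 and -0.04, against -0.01 and 0.00 over all genes. The largest rises were those of Pde4b and Pde4d, phosphodiesterases that break cyclic AMP down. Pde4b had means of 4.75 CPM in controls and 14.5 CPM with doxycycline, and of 4.87 CPM with dTAG-13 and 14.4 CPM with both agents. Its log2 fold changes were 1.62 (SE 0.0925, edgeR adjusted p = 9.94e-18) and 1.56 (SE 0.0936, adjusted p = 8.03e-17). Pde4d rose by 0.93 in each contrast.

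Adcy8, an adenylyl cyclase that makes cyclic AMP, fell by 0.67 and 0.42 on the log2 scale. The second call (adjusted p = 0.046) was lost in DESeq2 (-0.41), with the length and GC correction (-0.37, adjusted p = 0.0763) and without any 1 dTAG-13 library (-0.45 to -0.39). It was also lost without the first (-0.29) or the third (-0.39) library with both agents, the second control (-0.41) or the second doxycycline library (-0.41). Gnas, the Gs subunit itself, rose by 0.08 without dTAG-13 and had -0.02 with it.

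Known target genes of cyclic AMP and CREB were called in both directions without dTAG-13 and, where called, higher with it. Of 15, 14 were tested. Without dTAG-13 10 were called, 5 higher and 5 lower, where 33.5% of all genes were, with a median of 0.03 against -0.01 for all genes. In its presence 5 were called, 5 higher and 0 lower, where 20.4% of all genes were, with a median of 0.21 against 0.00. DESeq2 called 3 in the latter contrast, as did the fit to only the groups compared. The 3 higher in both were Ppargc1a (0.89 and 0.85), Per1 (0.34 and 0.21) and Sik1 (0.24 and 0.25). Ppargc1a, a coactivator of energy metabolism, lost its first call without the first (0.77) or second (0.87) control or the second (0.84) or the third (0.82) doxycycline library. It lost its second in DESeq2 (adjusted p = 0.0653), with only the groups compared (0.0580) and without the first (0.84) or the third (0.53) dTAG-13 library or the first (0.73) or the third (0.84) with both agents. In the presence of dTAG-13, Per1 lost its call when scaled by library size alone (0.17) and without the third dTAG-13 library (0.17) or the first or second with both agents (0.20 each). Sik1 lost it without the first dTAG-13 library (0.16) or the first (0.23) or second (0.20) with both agents. The early response gene Fos fell by 1.46 on the log2 scale without dTAG-13, and Dusp1 fell by 0.57. In its presence Dusp1 rose by 0.64, and Fos had 0.48 (adjusted p = 0.0568).

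**Figure D5:**
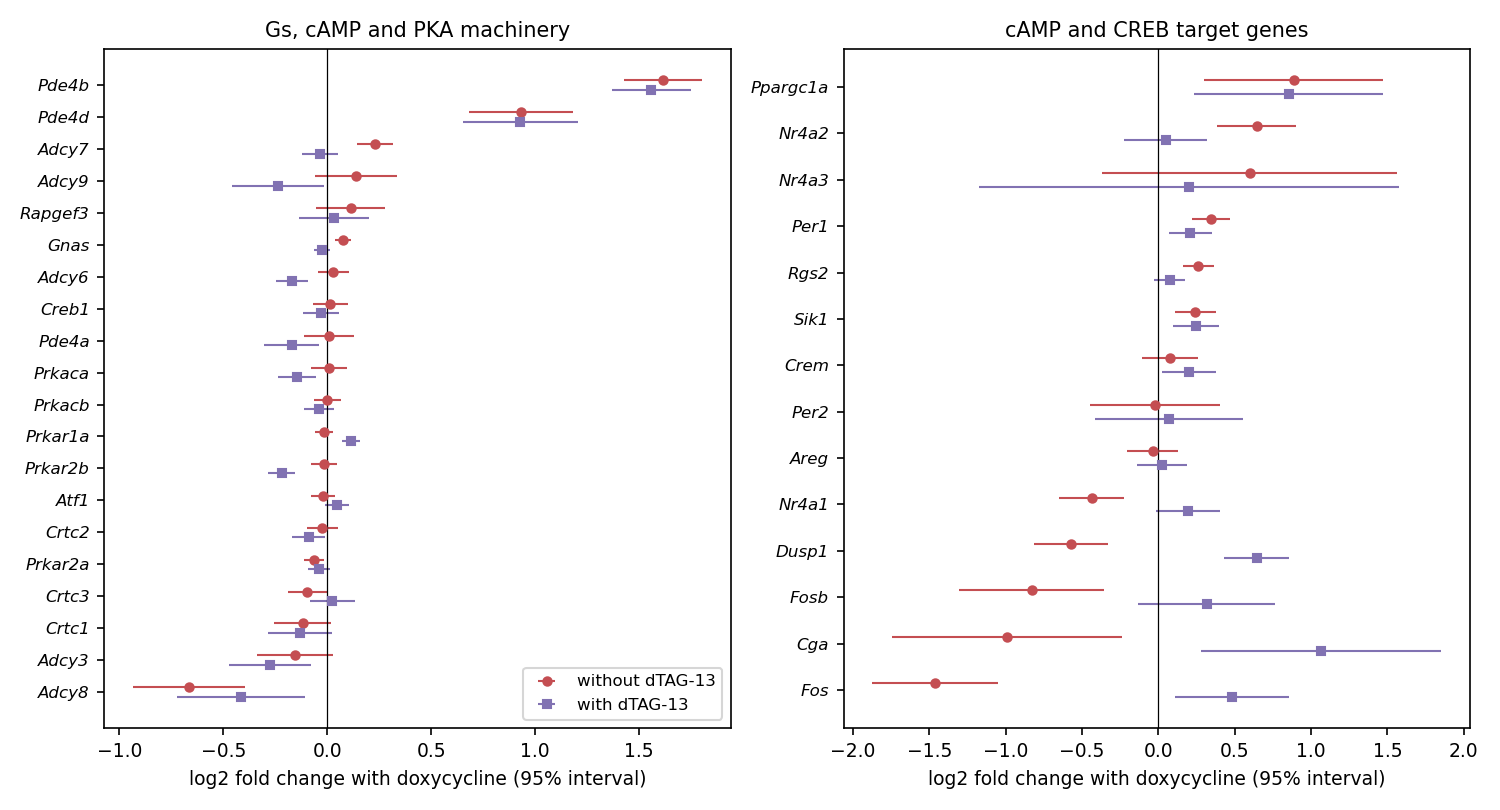
Log2 fold change with doxycycline (95% intervals, not adjusted for the number of genes) in the absence (circles) and presence (squares) of dTAG-13 for the tested genes of the cyclic AMP machinery (left) and of its target genes (right). Pde4b and Pde4d lie to the right in both contrasts, whereas Fos and Dusp1 lie left of 0 without dTAG-13 and right of 0 with it.

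Of 13 other genes named for a SAM domain, 11 had a read and 6 were tested. Samd9l, an interferon-inducible antiviral gene, rose by 0.44 and 0.49. Samd4b, a regulator of mRNA, fell by 0.11 on the log2 scale without dTAG-13 and had -0.04 with it. It was no longer called when scaled by library size alone (-0.07), without the third control (-0.07) or without the first doxycycline library (-0.08). The list medians were 0.00 and -0.05. Srcin1, the relative of Etl4, had 0 to 5 reads per library and was not tested.

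The genes whose pattern over the 12 libraries was most like that of the 4 were found by Pearson correlation with the mean log2 CPM of the 4. They were Gbp3 (r = 0.994), Pde4b (0.993), Adpgk (0.991), Nek7 (0.990), Map4k3 (0.989) and Ifitm3 (0.989). These values describe a step between the groups with and without doxycycline, which the choice of the 4 genes fixed, and the libraries share cultures. The sizes of the step differ widely. Gbp3, an interferon-induced GTPase, rose by 0.47 and 0.46 in the 2 doxycycline contrasts, and Ifitm3, an antiviral membrane protein, by 0.49 and 0.59. Nek7, a kinase of the NLRP3 inflammasome, rose by 0.43 and 0.45, and Map4k3, a kinase of nutrient signalling, by 1.44 and 1.42. With Spearman's rank correlation 0 of the 6 were among the nearest. Each of the 4 genes followed the mean of the other 3 with r of 0.993 (Samd5), 0.993 (Adgrg1), 0.987 (Htr4) and 0.979 (Etl4) over 12 libraries. The choice of the 4 genes fixed these values as well, so they are a description only.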

How the data were processed

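RNA from 12 libraries was analysed. The values are raw counts as the authors deposited them, in a table of 27179 Entrez gene IDs without normalisation. Subread made the alignments, per the file headers, and per the submitters' processing notes bcl2fastq 2.17, featureCounts and mm10 were used. Not given in the sources used here are the aligner version, the annotation, the strand setting and the treatment of multi-mapping reads. Per the labels, poly(A) RNA was made into libraries with NEBNext Ultra II RNA chemistry.

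Symbols (25275 IDs), positions and promoters came from RefSeq GRCm38.p6, and exon lengths from GENCODE. Total counts ran from 22165538 to 32809573 per library. Genes were filtered with filterByExpr (12910 kept, all 4 genes among them), scaled by TMM (factors 0.965 to 1.03) and tested in 1 model of 4 group means by the robust quasi-likelihood F test of edgeR 4.0.16 (R 4.3.3), two-sided, with Benjamini-Hochberg adjustment over all tested genes. Called means an adjusted p under 0.05, and "rose" or "fell" refers to called genes. CPM is given as mean ± SD. Ratios use reads summed over 3 libraries, scaled by total counts, with exact 95% intervals, and a floor of 3 reads over a group for groups at 0.

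The 4 genes, the lists and the tests were chosen with earlier results of these data known. Besides these 4 and Adpgk, the text names the nearest genes outside the limit, 3 neighbours on each side (1 is not reported here), the 6 genes most like the mean pattern and, per list, up to 3 called genes with the largest change in each doxycycline contrast. Per1, Sik1, Gnas, Gna11, Arhgef1, Arhgef12, Rock2, Krt15, Rnf207, Slc6a2, and list members named as not called or not detected, were added after their values were seen. Alternatives were DESeq2 1.42.0, RLE size factors, library size only, 2 other filters, only the groups compared, a length and GC correction, a replicate block and leaving out each library. The code was tested on simulated data. Tables and figures were made in Python 3.11.15 with pandas 2.3.3, numpy 2.4.6 and matplotlib 3.10.9.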

Additional observations from a re-analysis of the deposited data

Results flagged for a closer look

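For 15 of 40 named genes tested, the doxycycline effect differed between cells with and without dTAG-13 by a test of the difference itself (edgeR, adjusted p under 0.05), and so did 22.9% of all tested genes (2950 genes). The shares are not comparable, since many of the named genes were picked as the largest called changes in 1 of the 2 doxycycline contrasts, which favours genes whose effects differ. The 4 doxycycline-induced genes were left out of this test, since the doxycycline contrasts chose them. Values are the log2 effect with dTAG-13 minus the effect without it, each with 3 libraries per group.

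Among cyclic AMP target genes the difference was 2.06 for Cga (adjusted p = 0.00427), 1.95 for Fos (9.75e-07) and 1.21 for Dusp1 (2.24e-07). The value of Cga rests on few reads, 6 to 30 per library. In all 3 the effect was below 0 without dTAG-13 and above 0 with it, although the effect of Fos with dTAG-13 was not called and both effects of Cga (-0.99 and 1.07) were lost in DESeq2. The second effect of Cga was also lost with the replicate block (adjusted p = 0.0572), the length and GC correction (0.0762) and only the groups compared (0.0582), and with 9 of the 12 libraries left out in turn (0.77 to 1.70 over the 12). The first was lost without the second control or the second or the third doxycycline library (-0.90 to -0.76).

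Among receptors, ligands and signalling genes it was -0.33 for Adgrg6 (5.83e-07), -0.20 for Adgrl1 (0.0178), -0.15 for Col3a1 (0.00013) and -0.16 for Rock2 (0.00302). The length and GC correction ended the calls of Adgrl1 (-0.13) and Rock2 (-0.08). Col3a1 rose in both backgrounds, by 0.38 and 0.22.

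Among neighbours it was -0.38 for Stxbp5 (5e-08), -0.30 for Sh3tc2 (0.0248) and -0.12 for Tab2 (0.0201), and 0.25 for Polr2c (0.00531) and 0.28 for Gm13363 (0.0496). The remaining values were -0.14 for Adpgk (0.000412), which rose by 3.06 without and 2.92 with dTAG-13, -0.10 for Gnas (0.00727) and 0.11 for Ifitm3 (0.0438). With 1 library left out, 5 of these differences could fall short of the threshold: Adgrl1 without the first dTAG-13 library or the first with both agents (both -0.17), Sh3tc2 without the third dTAG-13 library (-0.26), the third with both agents (-0.21) or the first (-0.29) or second (-0.28) doxycycline library, and Tab2 without the first or second control, the third dTAG-13 library or the first or the third with both agents (-0.11 to -0.10). Gm13363 (0.21 to 0.29) and Ifitm3 (0.08 to 0.12) did so when any 1 of 9 libraries was left out. DESeq2 did not call the differences of Tab2, Sh3tc2 and Gm13363, and with library size only or the replicate block those of Gm13363 and Ifitm3 were not called. With no filter that of Gm13363 was not called either.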

How the results depend on the processing

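The fall of Adgrg1 with dTAG-13 among doxycycline cells was called under all 20 alternatives (-0.53 to -0.35, the last with the length and GC correction). Samd5 (-0.33 to -0.09) and Htr4 (0.16 to 0.42) were called under none. Etl4 ranged from -0.85 to -0.26 with 1 library left out, gave -0.14 with the length and GC correction (adjusted p = 0.724) and was called only without doxycycline plus dTAG-13 replicate 2. With 1 library left out, the ratio to controls ranged from 137 to 313 for Samd5, from 13.1 to 62.4 for Htr4 and from 22.6 to 70.9 for Etl4, and in the presence of dTAG-13 from 14.8 to 23.2 for Htr4 and from 15.3 to 81.4 for Etl4. The low ends other than 22.6, and all values of Htr4 in the presence of dTAG-13, are bounds against a group at 0 reads. The neighbours called in doxycycline against control ranged from 7 to 11. By Spearman correlation 0 of the 6 most similar genes stayed. The difference of the doxycycline effects reversed for Ifitm3 with the length and GC correction (-0.0556, adjusted p = 0.323), and the cause was not tested. Of 1539 values of 78 named-gene results, 1382 kept direction and call, 156 lost the call and 1 reversed. Htr4 and Etl4 had too few reads for the filter of 1 CPM in 3 libraries. Scaling by library size only gave 2546 higher and 1607 lower for doxycycline against control (1917 and 2414 with TMM), 926 and 2132 in the presence of dTAG-13 (1386 and 1244), and 5256 and 3115 for dTAG-13 against control (3877 and 4144). Same-numbered libraries did not deviate together (r from -0.19 to 0.18 over 18 pairs, 3 above 0.1). With the replicate block 4172 genes were called for doxycycline against control and 2490 in the presence of dTAG-13, and Adgrg1 gave -0.49. At 1 culture per treatment and 0 to 3 reads without doxycycline in 3 of the 4 genes, depth limits the size of their ratios.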
